A study of Mus musculus with 18 samples.

Results

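The comparison described here is that of the Jmjd1c guide RNA e12.3 with a control guide against Renilla in Cas9-expressing mouse leukaemia cells. It rests on 6 libraries, 3 with e12.3 and 3 with the Renilla guide, out of 18 libraries of poly(A) RNA in all. Of 23899 genes in the table, 11550 had a mean of at least 1 FPKM (fragments per kilobase, scaled to sequencing depth) over the 18 libraries and were tested. The cells are a primary mouse leukaemia with Cas9 and the fusion protein MLL-AF9, kept in medium with 10% serum and 10 ng/ml mouse interleukin-3. All groups share this background. The Renilla group received a guide against a luciferase of the sea pansy, a gene that the mouse genome lacks. Mock served as a second control group of 3 libraries, and the guides e12.4, e20.1 and e21.1, also against Jmjd1c, account for the other 9 libraries. The labels do not say which protein domain each guide cuts, what mock received, how many cells were edited, or whether the libraries of a group came from separate cultures. The p-values below therefore measure only the spread between these libraries.

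Jmjd1c encodes a large nuclear protein of the KDM3 family, whose jumonji domain is the fold by which related enzymes remove methyl groups from lysine 9 of histone H3. MLL-AF9 joins the chromatin regulator KMT2A to MLLT3 and holds myeloid progenitors in a self-renewing state, in part through the homeobox genes Hoxa9 and Meis1. Interleukin-3 acts on such cells through a receptor that pairs an alpha chain with a beta chain, and the receptor signals through JAK2 and STAT5 and through RAS and the MAP kinases. STAT5 switches on Cish, whose product dampens the same receptor, and MAP kinases switch on immediate-early genes such as Egr1 within minutes of stimulation.

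Promoters of 3 genes described below are printed because their transcripts were higher with e12.3 and because they hold the palindrome TTCNNNGAA that STAT dimers are known to bind. Each runs from 250 bases before to 50 bases after the RefSeq gene start (GRCm38.p6), 5′ to 3′ on the strand of the gene, with matches in capitals. They lie at chr9:107296409-107296708 (Cish, plus strand), chr15:78305672-78305971 (Csf2rb2, minus strand) and chr3:142530086-142530385 (Gbp7, plus strand).
Cish: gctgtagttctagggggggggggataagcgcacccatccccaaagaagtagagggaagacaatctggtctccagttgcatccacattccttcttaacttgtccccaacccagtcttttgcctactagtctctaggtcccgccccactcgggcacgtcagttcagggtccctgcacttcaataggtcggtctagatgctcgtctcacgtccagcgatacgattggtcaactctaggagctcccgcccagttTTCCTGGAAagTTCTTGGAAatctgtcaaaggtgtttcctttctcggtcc
Csf2rb2: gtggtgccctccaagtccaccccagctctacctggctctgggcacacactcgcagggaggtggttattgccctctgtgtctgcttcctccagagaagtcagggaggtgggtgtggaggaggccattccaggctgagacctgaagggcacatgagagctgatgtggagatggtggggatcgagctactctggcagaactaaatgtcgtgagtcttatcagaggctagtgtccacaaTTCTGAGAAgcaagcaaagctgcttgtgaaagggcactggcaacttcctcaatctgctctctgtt
Gbp7: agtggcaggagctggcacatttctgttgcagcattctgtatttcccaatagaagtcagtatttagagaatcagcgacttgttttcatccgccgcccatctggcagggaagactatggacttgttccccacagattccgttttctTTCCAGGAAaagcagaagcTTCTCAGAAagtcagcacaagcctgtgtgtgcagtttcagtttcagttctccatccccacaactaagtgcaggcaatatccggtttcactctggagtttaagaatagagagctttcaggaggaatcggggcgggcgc
The Cish and Gbp7 windows hold 2 matches each and the Csf2rb2 window holds 1. Searched on both strands, the motif occurred in 8.37% of the promoters of the 8454 tested genes that the table covers and in 12.9% of the promoters of the 264 covered genes that were higher with e12.3. A match describes letters in this window and is no evidence of binding.

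Estimated depth was 31.5, 29.1 and 67.1 M reads in e12.3 replicates 1 to 3 and 32.9, 38.7 and 30.7 M in Renilla replicates 1 to 3, so that 1 FPKM of a 2-kilobase transcript stands for 58 to 134 reads. The library of e12.3 replicate 3 stood apart. On the first principal component of all 18 libraries it scored 21.6, within the 14.3 to 35.0 of the 6 control libraries, whereas e12.3 replicates 1 and 2 scored -6.6 and -14.6. On the second component it scored -41.1, far from the controls (9.1 to 13) and from e12.3 replicates 1 and 2 (3.0 and 2.8), and nearest to e21.1 replicate 3 (-49.9). It also carried more Mpo (1020 FPKM against 377 and 384) and less Cd34 (80.1 FPKM against 214 and 251) than the other e12.3 libraries. Results are given with and without it. Ptprc, Kit, Itgam, Mpo, Elane, Hoxa9, Meis1 and Cd34, the markers checked for these cells, were present in all 6 libraries at 24.7 FPKM or more.

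Jmjd1c itself (ENSMUSG00000037876.17, GRCm38 chromosome 10, 67096125-67256326, plus strand) was at 66.6, 58.8 and 56.2 FPKM with e12.3 and at 64.2, 85.4 and 85.4 FPKM with Renilla. The groups overlapped, since Renilla replicate 1 lay below e12.3 replicate 1. The mean was 22.7% lower with e12.3, a log2 fold change of -0.36 (SE 0.17, adjusted p = 0.36 by limma). The exact two-sided permutation test gave p = 0.2, where 20 arrangements allow no p under 0.1. With array quality weights, and in no other setting, Jmjd1c was called (-0.39, adjusted p = 0.0084 by limma). A guide that introduces small insertions and deletions need not lower the transcript, and editing was not measured here. The related genes Kdm3a (29.9 ± 5.0 against 29.2 ± 7.81 FPKM, SD, n = 3) and Kdm3b (29.0 ± 2.43 against 33.7 ± 5.99 FPKM) did not pass the test.

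With e12.3, 350 genes were higher and 20 lower than with Renilla by limma at a Benjamini-Hochberg adjusted p under 0.05. These are 3.03% and 0.173% of the genes tested, 3.2% in either direction. Without replicate 3, 376 were higher (3.26%) and 16 lower (0.139%), 3.39% in either direction, and 282 higher and 7 lower genes were called both with and without it. All 350 higher and all 20 lower genes showed no overlap between the 3 e12.3 and the 3 Renilla values, a separation also found for 10.2% (upwards) and 6.67% (downwards) of all tested genes. Among the 350 higher genes, 35 were on lists of monocyte, granule, receptor or other cell type genes and 315 were on none. Fitted with the e12.3 and Renilla libraries alone, limma called 77 higher and 3 lower genes, and with array quality weights 1271 and 756. Lower genes numbered 13 without e12.3 replicate 2, and 8, 11 and 8 without Renilla replicates 1 to 3. The e12.3 replicate 3 library had the lowest of the 3 e12.3 values in 182 of the 350, the highest in 128 and the middle value in 40.

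**Figure D1:**
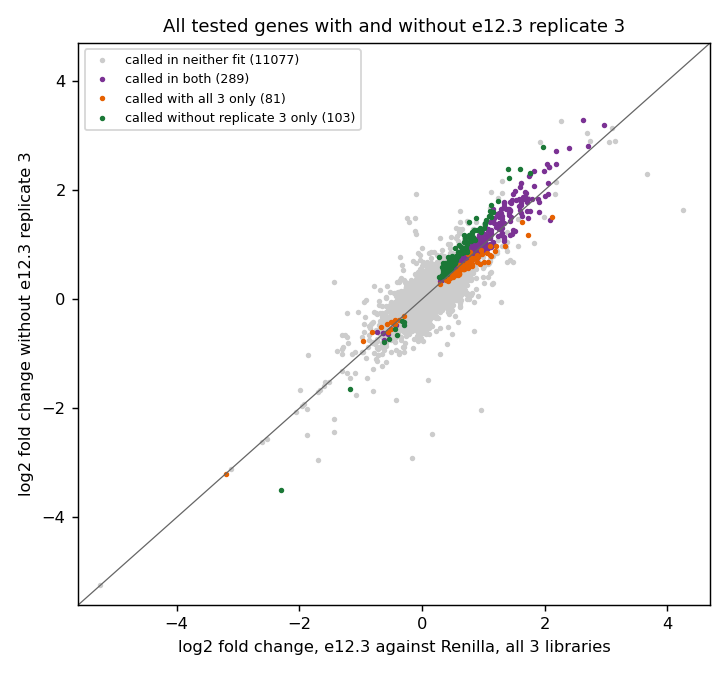
Each point is a tested gene, with its log2 fold change of e12.3 against Renilla from all 3 e12.3 libraries on the horizontal axis and without e12.3 replicate 3 on the vertical axis; the line marks equal values. Genes called in both comparisons (289) lie mostly at positive values on both axes, and more genes were called only without replicate 3 (103) than only with it (81).

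The genes in the next paragraphs were named by a rule of size among those called with and without replicate 3, outside the cell type lists. Nov, also known as Ccn3, a secreted matricellular protein, was at 36.0, 45.6 and 54.5 FPKM with e12.3 and at 8.16, 10.5 and 11.6 FPKM with Renilla. Every e12.3 library exceeded every Renilla library, and the log2 fold change was 2.06 (SE 0.23, adjusted p = 1.0e-04 by limma). Olfm4 (chromosome 14, 79984081-80023139) is a secreted glycoprotein of neutrophil granules that the granule and neutrophil lists did not hold. It was at 22.6, 40.6 and 118 FPKM with e12.3 and at 9.41, 9.63 and 12.6 FPKM with Renilla. The e12.3 values spread widely, with replicate 3 far above the others. The log2 fold change of Olfm4 was 2.09 (SE 0.45, adjusted p = 0.015 by limma), and the call was lost without Renilla replicate 1 (0.063) or Renilla replicate 2 (0.062).

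Ypel3 (chromosome 7, 126776955-126780514), a small zinc-binding protein linked to growth arrest, was at 32.9, 31.2 and 41.0 FPKM with e12.3 and at 7.44, 7.83 and 8.53 FPKM with Renilla. Its groups were tight and far apart (log2 fold change 2.0, SE 0.2, adjusted p = 4.6e-05 by limma). Slfn2 (chromosome 11, 83065112-83070678), a Schlafen protein that keeps immune cells quiescent, was at 25.0, 34.5 and 13.2 FPKM with e12.3 and at 4.59, 4.90 and 5.45 FPKM with Renilla. Replicate 3 was the lowest e12.3 library for Slfn2 but still above all controls, and the log2 fold change was 1.98 with it and 2.35 without it. Slfn2 belongs to a gene cluster of close relatives, between which short reads can be hard to assign. Tpd52, a vesicle-trafficking protein, rose from 4.7 ± 0.544 to 18.1 ± 3.87 FPKM (SD, n = 3), a log2 fold change of 1.73 with the small standard error of 0.13. Tmem154, a membrane protein, rose from 4.46 ± 0.749 to 17.6 ± 3.33 FPKM.

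Nt5e, the ectonucleotidase CD73 that makes extracellular adenosine, was at 54.3, 59.8 and 37.5 FPKM with e12.3 against 14.9 ± 0.814 FPKM with Renilla (SD, n = 3; log2 fold change 1.68). Lrp1, an endocytic receptor of the LDL receptor family, was at 10.9, 12.6 and 6.72 FPKM against 2.55, 2.59 and 2.23 FPKM (log2 fold change 1.64). For both surface proteins replicate 3 was the lowest of the e12.3 libraries, and without it the log2 fold changes were 1.87 and 1.88. The calls of Nov, Ypel3, Slfn2, Tpd52, Tmem154, Nt5e and Lrp1 held in all 14 other settings of the analysis.

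The least stable of these genes were Adam8, a metalloprotease of leukocyte surfaces, and Cyp4f18, a cytochrome P450 that hydroxylates leukotriene B4. Adam8 was at 14.8, 29.9 and 6.13 FPKM with e12.3 and at 2.08, 3.45 and 5.53 FPKM with Renilla, so that e12.3 replicate 3 and Renilla replicate 3 nearly met. Its log2 fold change was 1.76 (SE 0.45, adjusted p = 0.045 by limma), and the call was lost without e12.3 replicate 1 (0.12), e12.3 replicate 2 (0.18), Renilla replicate 1 (0.19) or Renilla replicate 2 (0.12). Cyp4f18 was at 17.3, 25.5 and 6.83 FPKM with e12.3 and at 4.17, 3.81 and 4.20 FPKM with Renilla (log2 fold change 1.62, SE 0.35, adjusted p = 0.016 by limma). Its call was lost without e12.3 replicate 1 (0.069) or 2 (0.082), and without Renilla replicate 1 (0.053), 2 (0.062) or 3 (0.052).

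**Figure D2:**
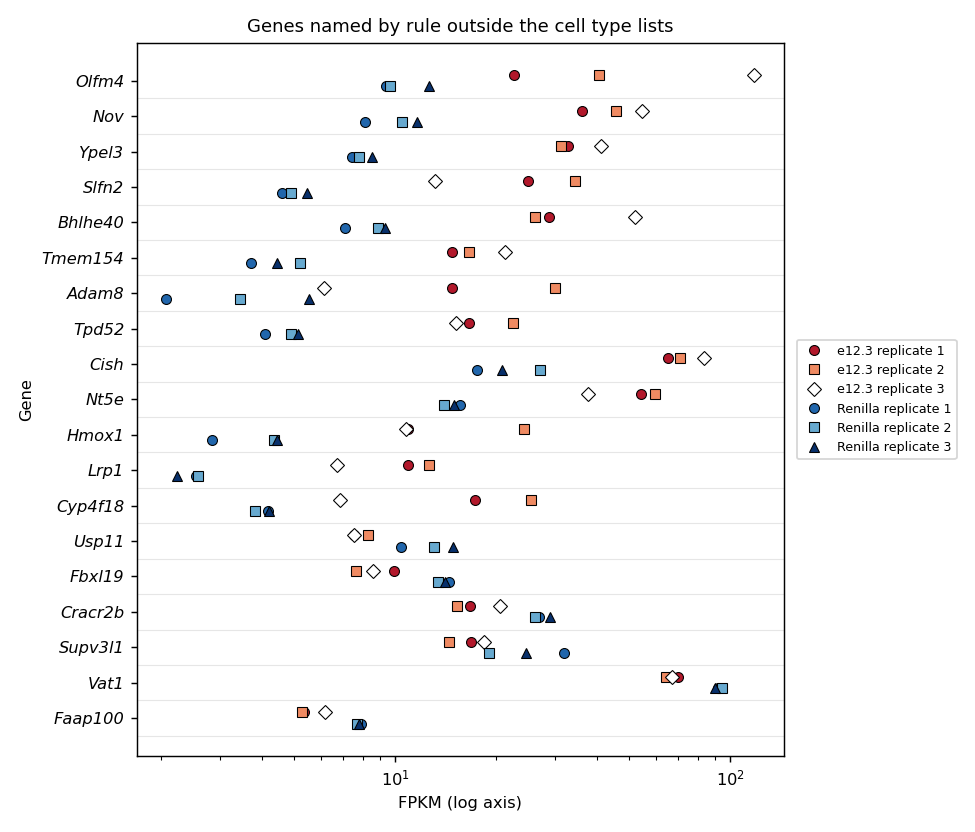
FPKM on a log axis in each of the 3 e12.3 libraries (circle, square and open diamond in red, orange and white) and the 3 Renilla libraries (blue) for higher and lower genes named by rule, outside the cell type lists. No gene plotted shows overlap of the groups; e12.3 replicate 3 is the highest library for Olfm4 (118 FPKM) and the lowest e12.3 library for Adam8 (6.13 FPKM).

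Only 6 genes met the same conditions in the lower direction, and their changes were small. Vat1 (chromosome 11, 101458745-101466230), a membrane protein of synaptic vesicles and mitochondria, was at 69.6, 64.5 and 67.1 FPKM with e12.3 and at 91.8, 94.4 and 90.3 FPKM with Renilla. Its log2 fold change was -0.45 (SE 0.07, adjusted p = 0.0019 by limma), with hardly any spread within a group. Usp11, a deubiquitinase on the X chromosome, was at 7.55, 8.32 and 7.53 FPKM against 10.4, 13.1 and 14.9 FPKM (log2 fold change -0.64, adjusted p = 0.0066 by limma). Fbxl19, an F-box protein that recruits a ubiquitin ligase and binds CpG islands, was at 9.93, 7.65 and 8.57 FPKM against 14.5, 13.4 and 14.1 FPKM (log2 fold change -0.63, adjusted p = 0.0022 by limma).

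Cracr2b, a calcium-binding regulator of store-operated calcium entry, fell from 27.3 ± 1.43 to 17.5 ± 2.79 FPKM (log2 fold change -0.62), and its call was lost without e12.3 replicate 2 (adjusted p = 0.062 by limma) or Renilla replicate 3 (0.055). Supv3l1, a mitochondrial RNA helicase, was at 16.8, 14.5 and 18.4 FPKM against 31.8, 19.1 and 24.5 FPKM. Its call (adjusted p = 0.037 by limma) was lost without e12.3 replicate 1 (0.093) or 2 (0.15) and without Renilla replicate 1 (0.15) or 3 (0.11). Faap100, a member of the Fanconi anaemia core complex that handles DNA crosslinks, fell by 0.42 on the log2 scale (adjusted p = 0.03 by limma). That call was lost without e12.3 replicate 1 (0.11) or 2 (0.11) and without Renilla replicate 1 (0.097), 2 (0.088) or 3 (0.097).

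Of the 848 tested genes on 37 pathway lists, 48 were higher and none was lower. Over all tested genes 3.03% were higher and only 0.173% lower. The absence of lower members from a list therefore says little about that list. A list is described by its count and by the median log2 fold change of its members, which over all tested genes was -0.01 with all libraries and -0.03 without replicate 3. Members were called higher on 19 of the 37 lists with all libraries and on 18 of the 37 without replicate 3, not all of them the same. Without replicate 3 the glycolysis, MYC and H3K9 lists had no higher member. The cholesterol synthesis and cholesterol efflux lists had higher members only then.

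Interleukin-3 signalling genes included 4 higher members among 21 tested (19.0%, against 3.03% of all genes), also 4 without replicate 3, and none lower. Its median was 0.24, and 0.29 without replicate 3. Cish (chromosome 9, 107296026-107302784), the STAT5-induced feedback inhibitor whose promoter is printed above, was at 65.2, 70.9 and 83.4 FPKM with e12.3 and at 17.6, 27.0 and 20.9 FPKM with Renilla. The groups were far apart for Cish, with a log2 fold change of 1.71 (SE 0.22, adjusted p = 3.1e-04 by limma). Osm, the STAT5-induced cytokine oncostatin M, was at 12.7, 15.1 and 13.3 FPKM against 6.86, 5.92 and 6.76 FPKM (log2 fold change 0.97, adjusted p = 0.0011 by limma).

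The beta chain of the interleukin-3 receptor is encoded in the mouse by Csf2rb, shared with other cytokines, and by its neighbour Csf2rb2, specific for interleukin-3. Csf2rb was at 95.4, 111 and 72.0 FPKM with e12.3 against 41.1, 50.4 and 47.9 FPKM with Renilla (log2 fold change 0.96, adjusted p = 0.0047 by limma). Csf2rb2 was at 14.5, 20.9 and 10.1 FPKM against 3.80, 5.45 and 5.54 FPKM (log2 fold change 1.40, adjusted p = 0.0014 by limma). Replicate 3 was the lowest e12.3 library for both, and without it the log2 fold changes were 1.13 and 1.65. The pair are near-identical copies, so the split of reads between them is uncertain. The STAT motif was present in 17.6% (3 of 17) of the promoters covered on this list.

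Immediate-early genes, the early transcriptional targets of mitogenic signals, had the highest count of the pathway lists. Of 20 tested members 9 were higher (45.0%, against 3.03% of all tested genes) and none lower. Without replicate 3, 6 of 20 were higher. The median of the list was 0.70 with all libraries and 0.73 without replicate 3, and per e12.3 library it was 0.47, 0.75 and 0.88. Egr1 (chromosome 18, 34859823-34864984), a zinc finger transcription factor, was at 4.7, 4.41 and 5.25 FPKM with e12.3 and at 0.664, 0.335 and 0.7 FPKM with Renilla. It was low in every control and similar in the 3 e12.3 libraries (log2 fold change 1.89, SE 0.25, adjusted p = 3.3e-04 by limma).

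Nr4a1, the orphan nuclear receptor Nur77, was at 3.18, 3.54 and 3.24 FPKM with e12.3 against 0.649, 1.27 and 1.12 FPKM (log2 fold change 1.11). Klf6, a zinc finger transcription factor, was at 11.2, 13.2 and 10.2 FPKM against 5.31, 4.88 and 5.86 FPKM (log2 fold change 0.98). Ier3, a stress-inducible modulator of survival, was at 14.3, 14.9 and 18.7 FPKM against 6.24, 5.24 and 6.39 FPKM (log2 fold change 1.28). These genes kept their calls in all 14 other settings. Ier5, a regulator of the heat shock response, rose with a log2 fold change of 1.10 (adjusted p = 0.0027 by limma), and Zfp36l1, which destabilises AU-rich mRNAs, with 1.33 (adjusted p = 0.0044 by limma). The AP-1 subunit Fos (log2 fold change 1.63, adjusted p = 0.014 by limma), Zfp36 (0.80, 0.023) and Btg2 (0.56, 0.015) also rose, but each lost its call in some comparisons with a library left out. For Fos the limma adjusted p was 0.059 without e12.3 replicate 3, and 0.063 and 0.067 without Renilla replicates 1 and 2. For Zfp36, which also destabilises mRNAs, it was 0.11 and 0.066 without e12.3 replicates 2 and 3 and 0.12 without Renilla replicate 1. For Btg2 it was 0.063 without e12.3 replicate 3, and 0.061 and 0.059 without Renilla replicates 1 and 2. On the log2(FPKM + 1) scale the change of genes as low as Egr1, Nr4a1 and Zfp36l1 is understated.

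Of the RAS and MAP kinase feedback genes, 3 of 13 tested were higher (23.1%, against 3.03% of all tested genes) and none lower. Without replicate 3, 3 were higher as well. Dusp5, a nuclear phosphatase of ERK, was at 3.76, 3.97 and 4.77 FPKM with e12.3 against 1.74, 1.68 and 1.57 FPKM with Renilla (log2 fold change 0.95, adjusted p = 8.4e-04 by limma). Dusp7, another ERK phosphatase, rose from 5.07 ± 0.979 to 9.46 ± 1.48 FPKM (log2 fold change 0.79). Rasgrp4, a RAS activator of myeloid and mast cells, rose from 15.2 ± 3.12 to 31.8 ± 5.37 FPKM (log2 fold change 1.02). The median of the list was 0.29 with all libraries and 0.09 without replicate 3, as the e12.3 libraries stood at 0.21, 0.09 and 0.67. Of the NF-kB list, 1 of 17 was higher (5.88%, against 3.03% of all tested genes). It was the ubiquitin-editing inhibitor Tnfaip3 (2.66 ± 0.178 against 1.09 ± 0.131 FPKM, log2 fold change 0.81). Without replicate 3, 2 of 17 were higher, as the adhesion molecule Icam1 was then called (adjusted p = 0.039 by limma, and 0.18 with all libraries).

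**Figure D3:**
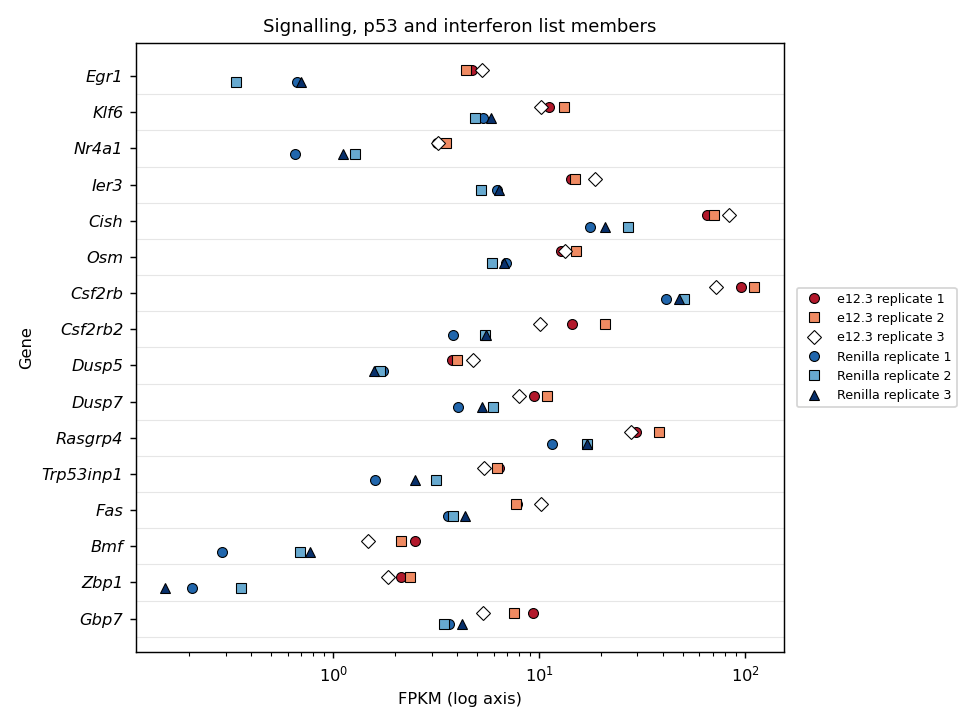
FPKM on a log axis of 16 members of the interleukin-3, immediate-early, RAS-MAPK, p53, cell death and interferon lists in the 3 e12.3 libraries (red, orange and white) and the 3 Renilla libraries (blue). For each gene all e12.3 libraries lie above all Renilla libraries; Egr1 spans 4.41 to 5.25 FPKM with e12.3 and 0.335 to 0.7 FPKM with Renilla.

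Among p53 target genes 4 of 21 tested were higher (19.0%, against 3.03% of all tested genes) and none lower. Without replicate 3, 3 were higher. Cdkn1a (chromosome 17, 29090976-29100727), the CDK inhibitor p21, was at 104, 138 and 104 FPKM with e12.3 and at 71.5, 75.8 and 64.3 FPKM with Renilla. The groups did not overlap, and the log2 fold change was 0.69 (SE 0.13, adjusted p = 0.0053 by limma). Trp53inp1, a p53-induced nuclear protein, was at 6.36, 6.27 and 5.37 FPKM against 1.59, 3.17 and 2.48 FPKM (log2 fold change 1.06). Fas, the death receptor, was at 7.84, 7.73 and 10.2 FPKM against 3.61, 3.83 and 4.36 FPKM (log2 fold change 0.95). The other member was Btg2, an antiproliferative gene that is on the immediate-early list as well and whose call was lost in the comparisons named there. The median of the list was 0.27, and 0.25 without replicate 3.

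Of the BCL2 family and caspases, 4 of 25 tested were higher (16.0%, against 3.03% of all tested genes) and none lower. Bmf, a BH3-only protein that opposes BCL2, was at 2.49, 2.13 and 1.47 FPKM with e12.3 against 0.289, 0.686 and 0.773 FPKM with Renilla (log2 fold change 0.94, adjusted p = 0.0036 by limma). The antiapoptotic Bcl2 rose from 5.13 ± 0.329 to 7.54 ± 0.831 FPKM (log2 fold change 0.48) and the executioner caspase Casp6 from 12.1 ± 1.31 to 18.5 ± 1.62 FPKM (0.58). Bcl2 lost its call without e12.3 replicate 1 (limma adjusted p = 0.10) or 3 (0.063) and without Renilla replicate 2 (0.10) or 3 (0.064). Casp6, called at 0.044, was lost without any single e12.3 library (0.12, 0.064 and 0.12) or Renilla library (0.055, 0.17 and 0.13). The other higher member was Bcl2a1d, a copy in a cluster of near-identical genes, lost without e12.3 replicate 1 (0.10), 2 (0.18) or 3 (0.056) and without Renilla replicate 2 (0.17) or 3 (0.21). The list had 3, 2 and 2 higher members without e12.3 replicates 1 to 3, and 6, 1 and 1 without Renilla replicates 1 to 3.

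The lists of DNA replication (35 tested) and mitosis (30 tested) had no member called in either direction, with medians of -0.04 and -0.07. Of the G1 regulators 2 of 13 were higher (15.4%, against 3.03% of all tested genes), Cdkn1a and the D-type cyclin Ccnd3. Ccnd3 was at 193, 219 and 206 FPKM with e12.3 against 148, 145 and 154 FPKM with Renilla (log2 fold change 0.47, adjusted p = 0.0028 by limma). Of the MYC partners and targets 1 of 19 was higher (5.26%, against 3.03% of all tested genes), the MYC antagonist Mxd1 (6.16 ± 1.13 against 3.49 ± 0.366 FPKM). Its limma adjusted p was 0.013, and it was 0.052 and 0.055 without e12.3 replicates 2 and 3 and 0.067 without Renilla replicate 1. Myc itself was at 88.0, 102 and 152 FPKM against 104, 106 and 115 FPKM and did not pass the test (log2 fold change 0.03).

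Interferon-stimulated genes had 7 of 20 tested members higher (35.0%, against 3.03% of all tested genes) and none lower. Without replicate 3, 6 were higher. Without e12.3 replicates 1 and 2 there were 3 and 2, and without Renilla replicates 1 to 3 there were 4, 2 and 4. The list had a median of 0.44, and 0.33 without replicate 3. Zbp1 (chromosome 2, 173206612-173218923), a sensor of Z-form nucleic acids, was at 2.12, 2.37 and 1.84 FPKM with e12.3 and at 0.206, 0.356 and 0.153 FPKM with Renilla. It was the firmest of the 7 (log2 fold change 1.33, SE 0.16, adjusted p = 2.1e-04 by limma), and its call held in the 13 other settings in which it was tested. With the stricter filter, 5 FPKM in 3 libraries, it was not tested.

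Gbp7, a guanylate-binding GTPase whose promoter is printed above, was at 9.30, 7.54 and 5.34 FPKM with e12.3 against 3.64, 3.43 and 4.20 FPKM with Renilla (log2 fold change 0.79, adjusted p = 0.022 by limma). Its call was lost without e12.3 replicate 1 (0.11) or 2 (0.08) and without Renilla replicate 1 (0.078) or 2 (0.093). Ifi27l2a, a small mitochondrial interferon-induced protein, was at 7.04, 11.6 and 3.66 FPKM against 2.54, 1.53 and 2.27 FPKM (log2 fold change 1.34). That call was lost without e12.3 replicate 1 (adjusted p = 0.059 by limma) or 2 (0.082) and without Renilla replicate 2 (0.088). Ifi203, of the HIN-200 gene cluster whose members share sequence, rose with a log2 fold change of 0.81 and lost its call without e12.3 replicate 1 (adjusted p = 0.051 by limma).

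Of the 7, Irf9 and Irf7 are transcription factors of the interferon response. Irf9 was at 5.87, 6.72 and 8.21 FPKM against 3.31, 4.08 and 4.47 FPKM (log2 fold change 0.68, adjusted p = 0.038 by limma). Its call was lost without e12.3 replicate 2 (0.09) or 3 (0.13) and without Renilla replicate 1 (0.17), 2 (0.094) or 3 (0.06). Irf7 was at 1.19, 1.84 and 0.874 FPKM against 0.321, 0.519 and 0.459 FPKM (log2 fold change 0.66, adjusted p = 0.038 by limma). Its call was lost without e12.3 replicate 1 (0.084) or 2 (0.16) and without Renilla replicate 1 (0.14), 2 (0.08) or 3 (0.099). The remaining member was Xaf1, a partner of the apoptosis inhibitor XIAP (log2 fold change 0.72), lost without e12.3 replicate 2 (0.15) and without Renilla replicate 2 (0.15) or 3 (0.13). The STAT motif was found in 47.1% (8 of 17) of the interferon list's promoters. In antigen presentation 1 of 18 MHC class I genes was higher (5.56%, against 3.03% of all tested genes). This was H2-T23, which encodes the Qa-1 molecule, at 54.5, 59.4 and 66.5 FPKM against 36.1, 29.7 and 26.9 FPKM (log2 fold change 0.94). Its limma adjusted p was 0.011, and 0.063 without Renilla replicate 3.

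Lysosome genes had 4 of 32 tested members higher (12.5%, against 3.03% of all tested genes) and none lower. Without replicate 3, 3 were higher. Lamp2, a lysosomal membrane protein, rose from 104 ± 2.15 to 129 ± 9.26 FPKM (SD, n = 3; log2 fold change 0.30), and Tfeb, the transcription factor of lysosome biogenesis, from 6.08 ± 0.445 to 9.44 ± 0.957 FPKM (0.56). Without e12.3 replicates 1 to 3 the list had 1, 0 and 3 higher members, and without Renilla replicates 1 to 3 it had 2, 0 and 1. For Lamp2 the limma adjusted p was 0.04 with all libraries, 0.18 and 0.079 without e12.3 replicates 1 and 2, and 0.069, 0.12 and 0.14 without Renilla replicates 1 to 3. For Tfeb it was 0.036 with all libraries, 0.11 without e12.3 replicate 2, 0.11 without e12.3 replicate 3, and 0.065, 0.14 and 0.10 without Renilla replicates 1 to 3. Of 21 autophagy genes 1 was higher (4.76%, against 3.03% of all tested genes). Wipi1, a phosphoinositide-binding autophagy protein, rose from 27.3 ± 2.85 to 45.2 ± 1.92 FPKM (log2 fold change 0.71, adjusted p = 0.0055 by limma).

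Hmox1, the haem oxygenase that is on both the NRF2 and the iron and haem list, was the only higher member of each. That is 1 of 24 and 1 of 24 (4.17% each, against 3.03% of all tested genes). It was at 10.9, 24.2 and 10.8 FPKM with e12.3 against 2.84, 4.36 and 4.46 FPKM with Renilla (log2 fold change 1.66, SE 0.29, adjusted p = 0.0036 by limma). No other NRF2 target was called, and the medians of the lists were -0.01 and 0.01. Of the actin cytoskeleton list 2 of 40 were higher (5.0%, against 3.03% of all tested genes), and 3 without replicate 3. Gsn, the actin-severing protein gelsolin, was at 68.8, 76.2 and 65.2 FPKM against 42.0, 41.1 and 41.2 FPKM (log2 fold change 0.74, SE 0.08, adjusted p = 5.1e-05 by limma). Plek, the platelet and leukocyte protein pleckstrin, was at 88.4, 106 and 36.6 FPKM against 16.4, 29.4 and 27.7 FPKM (log2 fold change 1.52). Plek lost its call without e12.3 replicate 1 (adjusted p = 0.094 by limma) or 2 (0.10) and without Renilla replicate 1 (0.11).

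The medians of the hypoxia and glycolysis lists moved with e12.3 replicate 3. Of the hypoxia list 2 of 15 were higher with and without it (13.3%). Over all tested genes 3.03% were higher with it and 3.26% without it. Bhlhe40, a transcriptional repressor of the circadian and hypoxia responses, was at 28.8, 26.2 and 51.9 FPKM with e12.3 against 7.07, 8.88 and 9.33 FPKM with Renilla (log2 fold change 1.90, adjusted p = 0.0014 by limma). Ndrg1, a hypoxia-induced gene of cell differentiation, was at 9.69, 12.6 and 14.5 FPKM against 4.05, 6.27 and 5.14 FPKM (log2 fold change 1.11, adjusted p = 0.011 by limma), and leaving out Renilla replicate 1 ended its call (0.063). The median of the hypoxia list in e12.3 replicates 1 to 3 was 0.07, -0.07 and 0.76, so that the list's 0.28 became 0.00 without replicate 3. In e21.1 replicate 3 it was 0.83, and over the remaining 11 guide and mock libraries it was between -0.05 and 0.15.

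The glucose transporter Slc2a3 was at 6.66, 8.27 and 28.8 FPKM with e12.3 and at 1.28, 2.56 and 2.21 FPKM with Renilla, with replicate 3 well above the others. Its log2 fold change was 2.11 (SE 0.51, adjusted p = 0.03 by limma), and 1.51 without replicate 3 (adjusted p = 0.11 by limma). It also lost its call without Renilla replicate 1 (0.13), 2 (0.067) or 3 (0.081). No other member of the 23 glycolysis genes was called with all libraries (4.35% higher, against 3.03% of all tested genes). Without e12.3 replicate 1 the list had 2 higher members, as the glucose transporter Slc2a1 was then called (adjusted p = 0.033 by limma, and 0.17 with all libraries). The median of that list was 0.19, and 0.07 without replicate 3.

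The medians of the cholesterol synthesis and amino acid response lists had opposite signs in replicate 3 and in the other e12.3 libraries. So did those of other lists, among them fatty acid synthesis, tRNA synthetases and mitosis. In e21.1 replicates 1 to 3 the medians were 0.38, 0.15 and -0.32 for cholesterol synthesis and -0.57, -0.44 and 0.22 for the amino acid response. No cholesterol gene among 25 was called with all libraries, whereas without replicate 3 the higher members were Sc5d, Fdft1 and Mvd. Sc5d, a late enzyme of the pathway, was at 34.8, 35.4 and 25.1 FPKM with e12.3 against 21.4, 18.9 and 24.7 FPKM with Renilla (log2 fold change 0.68 without replicate 3, adjusted p = 0.013 by limma). Fdft1, squalene synthase, was at 37.9, 44.5 and 26.3 FPKM against 28.0, 24.0 and 28.3 FPKM, and replicate 3 lay within the Renilla range. Mvd, mevalonate diphosphate decarboxylase, was at 56.4, 65.3 and 34.7 FPKM against 43.6, 30.7 and 35.4 FPKM. The list's median per e12.3 library was 0.34, 0.35 and -0.34, and all 25 members had a positive fold change without replicate 3, against 19 with it. Over all tested genes 5511 of 11550 fold changes were positive with all libraries. Members of a list were measured in the same libraries, so their signs are not separate observations. The CCAAT box, known from sterol-regulated promoters and frequent in general, was present in 94.4% (17 of 18) of the list's promoters and in 43.9% of those of all tested genes.

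Of the ATF4 list, the amino acid stress response, none of 29 members was called. Its median per e12.3 library was -0.37, -0.28 and 0.50. Without replicate 3 the median was -0.31 and 1 of 29 members had a positive fold change, against 6 with all libraries. Psat1, an enzyme of serine synthesis, was at 259, 291 and 352 FPKM against 416, 324 and 315 FPKM, and Atf4 itself at 286, 342 and 391 FPKM against 455, 353 and 387 FPKM; neither passed the test. The cytosolic tRNA synthetases, many of them ATF4 targets, had no member called among 20 and a median of -0.15, and -0.27 without replicate 3. Sequencing depth was also higher in replicate 3 (67.1 M reads), and the part of depth in these differences was not tested.

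**Figure D4:**
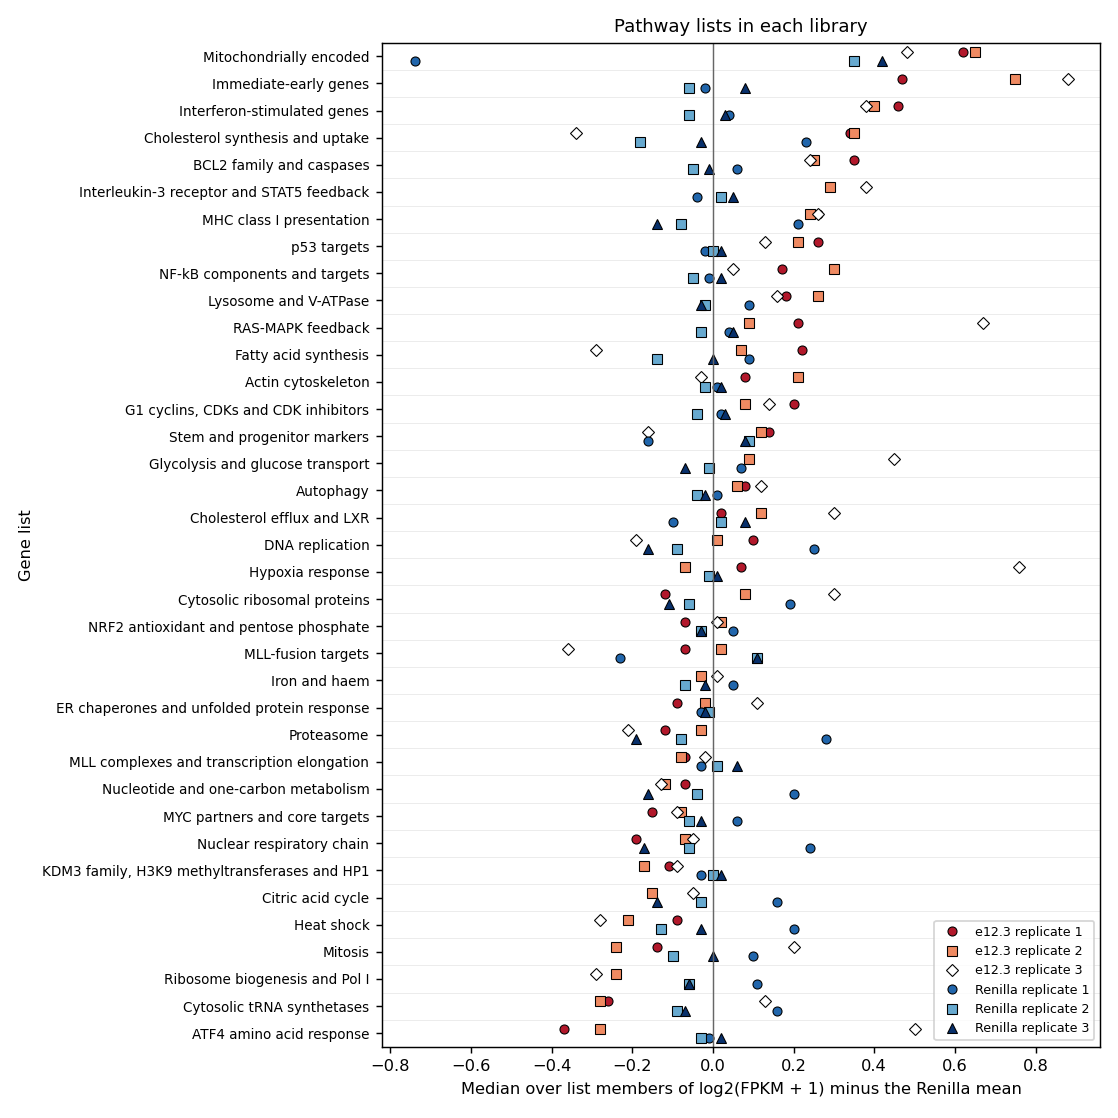
Median over the tested members of each of 37 pathway lists of log2(FPKM + 1) minus the Renilla mean, for each e12.3 library (red, orange and white) and each Renilla library (blue). Replicate 3 of e12.3 (white) lies on the other side of 0 from replicates 1 and 2 for cholesterol synthesis (-0.34) and the ATF4 response (0.50), and Renilla replicate 1 lies at -0.74 for the mitochondrially encoded genes.

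The growth and housekeeping lists had no called members. Ribosome biogenesis had a median of -0.25 over 40 genes, and -0.23 without replicate 3. Of the 40, 2 had a positive fold change, against 5511 of all 11550 tested genes. No member was called among the 55 cytosolic ribosomal proteins, 38 nuclear respiratory chain genes, 21 citric acid cycle genes, 28 proteasome genes, 23 chaperones of the endoplasmic reticulum and 13 heat shock genes. The 13 mitochondrially encoded genes had a median of 0.51, which became 0.11 without Renilla replicate 1. That library was low for mt-Nd2, a subunit of complex I, at 450 FPKM against 1250 and 1310 FPKM in the other Renilla libraries, whereas e12.3 libraries were at 1740, 1640 and 1430 FPKM.

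For genes tied to the leukaemia or to histone H3 lysine 9, counts are read against the 3.03% of all tested genes that were higher. None of 21 MLL-fusion targets was called, with a median of -0.10, and 0.00 without replicate 3. Hoxa9 was at 82.7, 102 and 99.8 FPKM with e12.3 against 64.2, 99.2 and 108 FPKM with Renilla (log2 fold change 0.10, adjusted p = 0.89 by limma). Meis1 was at 32.9, 35.0 and 29.5 FPKM against 28.8, 38.7 and 38.3 FPKM (log2 fold change -0.11, adjusted p = 0.74 by limma). Myb, a transcription factor that MLL-AF9 leukaemia is known to need, was at 187 ± 39.3 against 232 ± 37.7 FPKM and did not pass the test. Of 22 genes on the list named for the KDM3 family, H3K9 methyltransferases and HP1 proteins, 1 was higher (4.55%). This was Kdm7a, a demethylase that the list holds although it belongs to none of these classes (4.28, 3.51 and 5.86 FPKM against 1.89, 2.17 and 2.28 FPKM). Its log2 fold change was 0.81 (adjusted p = 0.025 by limma, and 0.10 without replicate 3), and its call was lost without e12.3 replicate 1 (0.064) and without Renilla replicate 1 (0.10), 2 (0.076) or 3 (0.064). Of 16 stem and progenitor markers 2 were higher (12.5%), the surface proteins Cd9 (20.4 ± 7.74 against 6.47 ± 0.726 FPKM) and Cd93 (90.1 ± 13.7 against 49.3 ± 2.12 FPKM). The call of Cd93 (adjusted p = 0.021 by limma) was lost without e12.3 replicate 1 (0.08) or 3 (0.074) and without Renilla replicate 1 (0.068), 2 (0.057) or 3 (0.081).

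Among the myeloid lists, the sums of the monocyte and primary granule lists did not overlap between e12.3 and Renilla, whereas those of the mature neutrophil list did. The monocyte and macrophage list had 23 of 51 tested members higher (45.1%, against 3.03% of all tested genes) and none lower. Without replicate 3, 28 were higher, and the median log2 fold change was 0.81 instead of 0.62. The summed level of the list was 3750 to 5140 FPKM with e12.3 and 2810 to 3070 FPKM with Renilla. The mature neutrophil list had 6 of 31 higher (19.4%), and 4, 4 and 3 without Renilla replicates 1 to 3. Without e12.3 replicate 3, 5 were higher, and the median was 0.35 instead of 0.56. The neutrophil sums were 2400 to 3400 FPKM with e12.3 and 2170 to 2640 FPKM with Renilla. The primary granule list had 1 of 16 lower, Ms4a3, whose call was lost without any single library. Of all tested genes 0.173% were lower. Without e12.3 replicate 3, 1 member was higher and 1 lower, and the median was -0.48 instead of -0.31. The granule sums were 4550 to 6700 FPKM with e12.3 and 6830 to 8160 FPKM with Renilla. The 6700 FPKM was that of e12.3 replicate 3, close to the Renilla range. On each of 4 lists a single member was at 0 in all 6 libraries: Fpr1 (monocyte), Alas2 (erythroid), Pax5 (lymphoid) and Cdh5 (stromal and endothelial). Other members of these lists were present. Over the 6 libraries the sums were 8.29 to 16.6 FPKM for the erythroid, 4.3 to 11.5 FPKM for the lymphoid and 441 to 919 FPKM for the stromal and endothelial list. In bulk RNA more cells of a type and more RNA per cell cannot be told apart, and the part of these markers in the changes of the pathway lists was not tested.

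Some genes were called only when e12.3 replicate 3 was left out. By rule these were led by Capn2, a calcium-dependent protease, at 10.6, 11.4 and 3.20 FPKM with e12.3 against 3.09, 3.12 and 2.57 FPKM with Renilla. Its log2 fold change was 1.11 (adjusted p = 0.078 by limma) and became 1.61 (adjusted p = 3.7e-04 by limma). Fbp1, the gluconeogenic fructose bisphosphatase, was at 8.39, 11.3 and 3.30 FPKM against 2.75, 2.89 and 2.57 FPKM, and Hgf, hepatocyte growth factor, at 13.3, 15.7 and 6.33 FPKM against 4.0, 5.75 and 5.08 FPKM. In each of these genes replicate 3 lay close to the control range. Rgs10, an inhibitor of G protein signalling, Cd300c2, an activating myeloid receptor, and Trio, a guanine nucleotide exchange factor, followed with log2 fold changes without replicate 3 of 1.24, 1.14 and 0.89. In the lower direction these were Spsb4 (-0.73 without replicate 3), Aplf (-0.54), a factor of DNA end joining, and Pspc1 (-0.40), a paraspeckle protein. S100a4, a calcium-binding protein of motile cells chosen after its values were seen, was at 39.0, 81.4 and 6.4 FPKM with e12.3 against 10.2, 8.79 and 11.1 FPKM, so that replicate 3 lay below every Renilla library.

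Against mock, the second control, 326 genes were higher (2.82%) and 14 lower (0.121%) by limma, and without replicate 3 these were 330 (2.86%) and 10 (0.0866%). This comparison shares the e12.3 libraries with the one above, so its values are set beside it without counting them as separate evidence. Log2 fold changes against mock were 1.99 for Nov, 1.69 for Ypel3, 2.18 for Slfn2, 1.88 for Tpd52 and 1.96 for Lrp1. For signalling genes they were 1.60 for Cish, 1.24 for Osm, 2.11 for Egr1, 1.42 for Klf6, 1.13 for Nr4a1 and 0.95 for Dusp5. All of these passed the test. Of the 6 lower genes, Vat1 (-0.52, adjusted p = 6.5e-04 by limma), Usp11 (-0.59, 0.014) and Cracr2b (-0.54, 0.033) passed against mock, whereas Fbxl19 (-0.36, 0.091), Supv3l1 (-0.26, 0.56) and Faap100 (-0.24, 0.36) did not. Of the lists, immediate-early genes had 10 of 20 members higher against mock, interferon-stimulated genes 5 of 20, interleukin-3 signalling 4 of 21 and lysosome genes 4 of 32. The median of the mitochondrially encoded genes was 0.17 against mock. Without e12.3 replicate 2 the counts against mock were 196 higher and 7 lower, without mock replicates 1 to 3 they were 204 and 8, 174 and 4, and 170 and 2, and with these groups alone in the model 85 and 4.

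Against the mean of the other Jmjd1c guides, which uses no control library, limma called no gene of 11550 (0.0%), with 370 at an unadjusted p under 0.05. In that fit this is a smaller share of the genes than the 0.05 that the threshold passes where nothing differs. The number moved with the setting. It was 129 without e12.3 replicate 3 and 530 without e12.3 replicate 1. With array quality weights it was 850 and without e12.3 replicate 2 it was 1066, both above that share. With array quality weights limma called 1 gene, and without e12.3 replicate 3 also 1 (0.00866%). The intervals show what this comparison leaves possible. For Egr1 the means were 4.78 ± 0.428 FPKM with e12.3 and 8.57, 7.94 and 13.4 FPKM with the guides e12.4, e20.1 and then e21.1, which makes a log2 difference of -0.85 (95% interval -1.28 to -0.42, adjusted p = 1.0 by limma). For Klf6 the difference was -0.60 (-0.82 to -0.37, adjusted p = 0.49 by limma), and for Osm -0.59 (-0.84 to -0.34, adjusted p = 0.97 by limma). For Slfn2 and Nt5e the differences were -0.58 (-0.99 to -0.17) and -0.51 (-0.84 to -0.18). Without e12.3 replicate 3, the lowest e12.3 library for both, they were -0.22 and -0.31. Neither gene was called with or without it. The interval of Cish was -0.52 to 0.25, that of Fas -0.27 to 0.24 and that of Jmjd1c -0.38 to 0.19. These intervals are not adjusted for the number of genes, and a p that misses the threshold does not show that the guides act alike.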

How the data were processed

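The authors deposited FPKM per gene, and the table of all 18 libraries was used. Per the submitters' processing notes, bcl2fastq 2.22.0.422, Salmon 0.13.0, DESeq2 1.22.1 and R 3.5.3 were used with mm10, and per the labels' protocols poly(A) RNA went into NEBNext Ultra II Directional libraries. Read depth was inferred from the size of FPKM steps, multiplied by length, in 1473 single-transcript genes, where 81.0 to 86.9% of low values lay within 10% of a whole read. These estimates were not used as counts. On the scale log2(FPKM + 1), 11550 genes that averaged 1 FPKM or more were fitted with limma-trend (limma 3.58.1, R 4.3.3) as means of 6 groups over all libraries, with Benjamini-Hochberg adjustment over all tested genes and a threshold of 0.05. The fit was tested on simulated data. Figures and tables were made with Python 3.11.15.

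Named genes are up to 14 per direction with the largest change that were called with and without e12.3 replicate 3, averaged 5 FPKM or more in the 6 libraries, had no overlap of the groups and a symbol of their own, and were outside the cell type lists and genes already described elsewhere (164 higher and 6 lower qualified). Added to them are up to 4 members with the smallest p of each pathway list, Jmjd1c, Kdm3a, Kdm3b, Hoxa9, Meis1, Myc and Myb, and up to 6 per direction that were called only without e12.3 replicate 3. Other list members that are named, the markers and S100a4 and Slc2a3 were chosen after their values were seen. The comparison, its members and the lists, which come from general knowledge, were chosen with earlier results of these data known. Promoters are from RefSeq (GRCm38.p6), and positions from GENCODE vM21, which holds 98.79% of the symbols. Nov had no position there. Alternatives were a fit of the compared groups alone, a pseudocount of 0.1, all genes above 0, genes with 5 FPKM in 3 libraries, a replicate block, upper-quartile scaling, array quality weights and the removal of single libraries or of e12.3 and e21.1 replicate 3 together. Some genes that meet the naming rule are not reported here.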

Additional observations from a re-analysis of the deposited data

Results flagged for a closer look

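The gene model BX890553.1 differed between e12.3 and the other Jmjd1c guides when e12.3 replicate 3 was left out, by -3.74 on the log2 scale (limma adjusted p = 5.9e-05), and by -3.77 (limma adjusted p = 2.1e-04) when e21.1 replicate 3 was left out as well. It was listed at 0 in e12.3 replicates 1 and 2 and at 11.3 FPKM in replicate 3, and at 5.21 to 21.5 FPKM in the 15 other libraries. Mpo, the granule enzyme myeloperoxidase, differed by 0.97 (limma adjusted p = 0.036) when both of these libraries were left out. It was at 377, 384 and 1020 FPKM with e12.3 and at 133 to 664 FPKM with the other guides. Neither gene was called with all libraries.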

How the results depend on the processing

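With only the compared groups in the model, 77 genes were higher and 3 lower against Renilla and 85 and 4 against mock. Array quality weights gave 1271 and 756 against Renilla, 869 and 313 against mock and 1 called gene against the other guides. Without e12.3 and e21.1 replicate 3 together the counts were 583 and 126, 552 and 106, and 2. Without a filter 37 genes were lower against Renilla and 1 was called against the other guides. Leaving out single libraries gave 241 to 376 higher and 8 to 16 lower genes against Renilla, 170 to 330 and 2 to 12 against mock, and 0 to 1 called against the other guides. Pseudocount 0.1, the stricter filter and upper-quartile scaling kept these counts within 1.5 times. Jmjd1c was called with array quality weights (-0.39, limma adjusted p = 0.0084) and in no other setting. The cause of these shifts was not tested, except that fewer libraries enter some fits.

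Replicate numbers shared between groups need not pair libraries. This was checked on the deviations of log2(FPKM + 1) from each gene's group mean. The correlations of these deviations between same-numbered e12.3 and Renilla libraries were -0.12, 0.11 and -0.18. With the replicate block, 486 genes were higher and 64 lower against Renilla, 390 and 31 against mock, and 0 were called against the other guides. By these deviations no e12.3 library correlated best with its own number.

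Of 58 called genes among 183 named and tested, 18 kept the call in every setting in which they were tested, 39 lost it with only the compared groups, 9 without e12.3 replicate 3 and 0 under the block. No named gene that was called changed sign. The medians of 12 of the 37 pathway lists, none of them further than 0.11 from 0, did so when 1 library was left out. Of these, cholesterol synthesis went from 0.09 to -0.03 without e12.3 replicate 2, the ATF4 response from -0.10 to 0.03 without e12.3 replicate 1, and DNA replication from -0.04 to 0.08 and ribosomal proteins from 0.07 to -0.02 without e12.3 replicate 3. Low values limit the precision, since 1 FPKM of a 2-kilobase transcript stands for as few as 58 reads in these libraries.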

Other observations

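The 20 genes that were lower with e12.3 share no pathway list, and those not described above were chosen here after their values were seen. Ms4a3, a membrane protein of granulocyte and monocyte progenitors, was at 214, 213 and 141 FPKM with e12.3 against 432, 355 and 310 FPKM with Renilla (log2 fold change -0.96, limma adjusted p = 0.043, and 0.16 without replicate 3). Ppic, a cyclophilin, was at 22.4, 19.5 and 15.6 FPKM against 33.7, 33.1 and 30.0 FPKM and kept its call without replicate 3 (limma adjusted p = 0.037). Ctnnd1, the cadherin-binding catenin p120, was at 18.4, 18.4 and 12.9 FPKM against 30.4, 26.5 and 23.4 FPKM, and Igfbp4, which binds insulin-like growth factors, at 89.6, 92.8 and 89.9 FPKM against 148, 117 and 110 FPKM. Without replicate 3 their limma adjusted p-values were 0.093 and 0.094. Kat14, an acetyltransferase subunit of the ATAC complex, and Pabpc4, a cytoplasmic poly(A)-binding protein, fell by 0.37 and 0.30 on the log2 scale with nearly equal values in the 3 e12.3 libraries (26.7, 26.4 and 26.8 FPKM, and 168, 166 and 167 FPKM). Their limma adjusted p-values without replicate 3 were 0.077 and 0.067. Ms4a3, Kat14 and Pabpc4 lost their calls without any single library, Igfbp4 without any but Renilla replicate 3 (0.034), and Ctnnd1 also without Renilla replicate 1 (0.12) or 2 (0.078).

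The gene model Gm10800 had the largest decrease, from 21.3, 14.8 and 26.7 FPKM with Renilla to 0.766, 2.03 and 1.38 FPKM with e12.3 (log2 fold change -3.20, limma adjusted p = 0.044). The call was lost without any single e12.3 library (0.14, 0.087 and 0.089) or Renilla library (0.13, 0.088 and 0.15). Against mock its log2 fold change was 0.54 (limma adjusted p = 0.93), so the difference was not seen with the other control.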
